A study of Arabidopsis thaliana with 11 samples.

Results

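Pectate lyases, polygalacturonases and pectin acetylesterases are enzyme families that take apart or remodel pectin, the gel-like polysaccharide of the plant cell wall. The set described here holds 41 loci (6 polygalacturonases, 23 pectate lyases and 12 pectin acetylesterases) of 32627 loci on the array. Members were taken by locus identifier, and the feature with the highest mean over all 11 arrays stood for its locus. All 41 were present on the array, 32 with a feature of 4 probes and 9 with one of 3 probes, and 5 of them, all pectin acetylesterases, had a second feature. No member was removed by a filter on low values.

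Transcripts were measured in dark-grown hypocotyls, the embryonic stems of seedlings, of Arabidopsis thaliana accession Columbia. The wild type has 6 arrays (replicates 1 to 6) and the mutant line atpme3-1 has 5 (replicates 1, 2, 3, 5 and 6). The labels describe atpme3-1 as a loss-of-function mutant of PME3, a pectin methylesterase gene. Both groups were 96 h old, after 3 days at 4 °C in the dark, 6 h of white light at 20 °C and 4 days of darkness. Replicates are separate collections of about 300 pooled hypocotyls each. The mutant group is 1 line, and no second allele or complemented line was measured.

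Homogalacturonan, the main pectin, is a chain of galacturonic acid that is made methylated and is demethylated in the wall by pectin methylesterases such as PME3. Polygalacturonases hydrolyse the demethylated chain, and pectate lyases cut it by elimination. Pectin acetylesterases remove acetyl groups from the same polymer. In seedlings these enzymes are known from cell expansion and from places where cells separate, such as a lateral root breaking through its overlying tissue, and other members act in fruit opening, organ shedding and pollen.

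Values are log2 of the deposited intensities, and differences are labelled mutant minus wild type on that scale, with the moderated standard error (SE) of limma. A gene is said to have risen or fallen where the Benjamini-Hochberg adjusted p over all features was under 0.05. PME3 itself gave more signal on the 5 arrays with the mutant label (log2 mean 14.41 ± 0.02, SD, n = 5, against 13.81 ± 0.06, SD, n = 6, with an exact two-sided permutation p of 0.00216, the smallest these groups allow). A loss of the transcript was therefore not seen. Where these probes lie relative to the disrupted part of PME3 was not examined, and a probe outside that part would check nothing. These arrays are referred to as labelled mutant, and all directions depend on the label. Over all features, arrays within a group correlated at 0.985 to 0.998 and those between the groups at 0.966 to 0.982.

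The wild-type arrays resembled each other in pairs: replicates 1 and 4, 2 and 5, and 3 and 6 correlated at 0.9966, 0.9967 and 0.9978, against 0.9852 to 0.9945 for other wild-type pairs. Such a pairing was less plain among the labelled mutant arrays, where replicates 2 and 5 (0.9951) and 3 and 6 (0.9950) lay within the range of the other pairs (0.9912 to 0.9971). Wild-type replicates 2 and 5 stood apart for several members, and for some of these, not all, the value without them is given as well. The labels say that replicates were collected separately and give no reason for the pairs.

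Of the 41 members 6 rose, 7 fell and 28 did not pass the threshold. The share that passed, 31.7%, lay near the background in this fit, where 32.5% of all loci passed (19.4% higher and 13.1% lower). The members' median log2 fold change was 0.06, beside 0.05 over all loci. A few falls were large. With a fold of at least 1.5 asked for as well, 4 members (9.76%) fell and 0 rose, beside 4.99% and 3.58% of all loci. The 4 were the polygalacturonase gene ADPG1 and the pectate lyase genes RHS14, AT4G22090 and AT1G11920. The 6 rises were all small, between 1.18-fold and 1.38-fold.

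**Figure D1:**
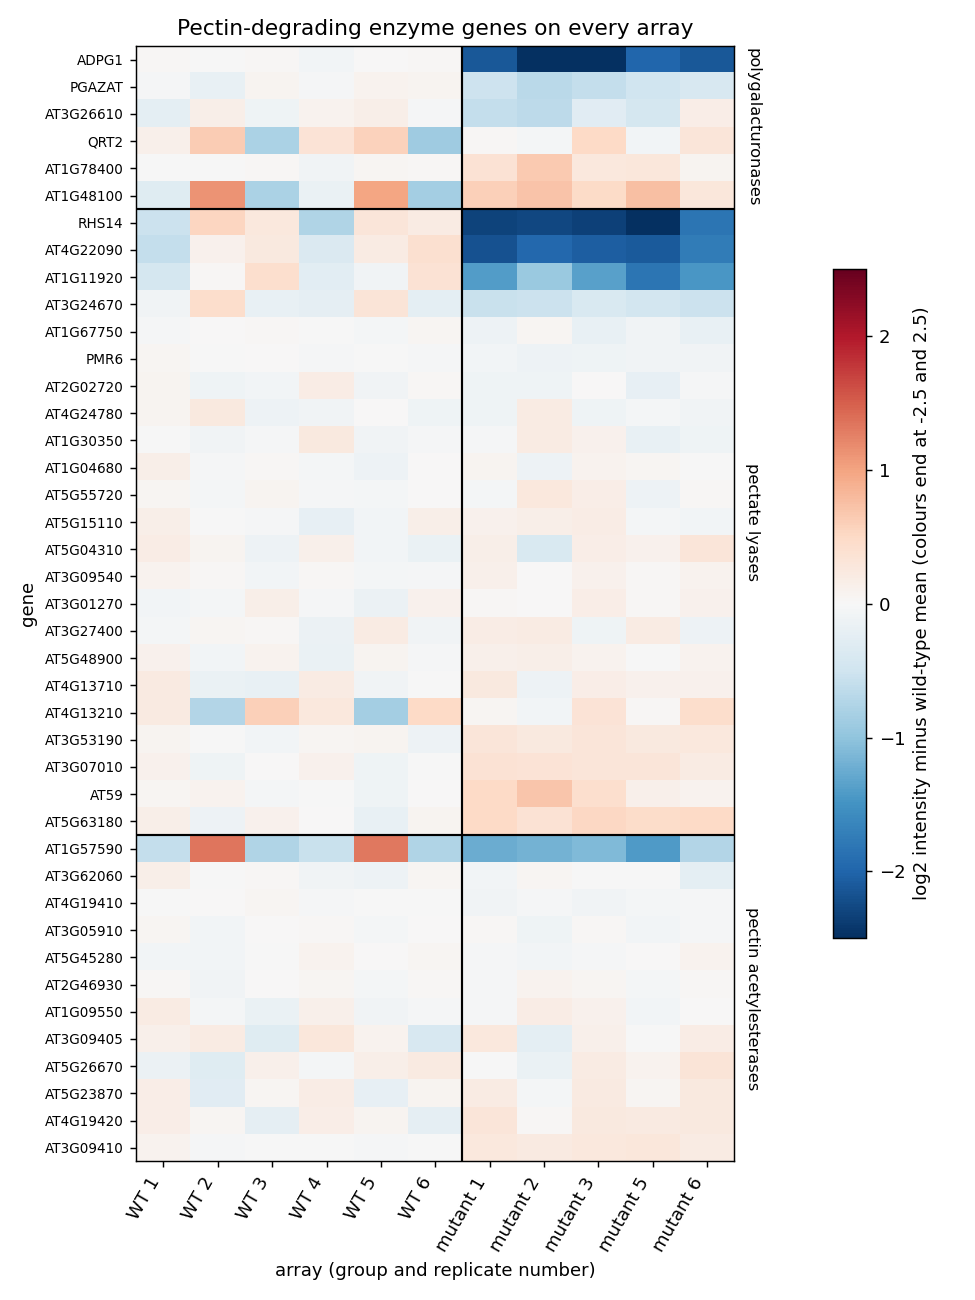
Each row is a gene, grouped by enzyme family, and each column an array; the colour gives log2 intensity minus the gene's wild-type mean, blue lower and red higher. ADPG1, RHS14, AT4G22090 and AT1G11920 are blue on all 5 labelled mutant arrays. AT1G57590, AT1G48100 and AT4G13210 split the wild-type arrays, with replicates 2 and 5 apart from the others. For QRT2, wild-type replicates 3 and 6 lie below the other wild-type arrays.

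Groups of arrays did not overlap for 13 members. For 5 of these (12.2%) the labelled mutant arrays were all higher, beside 10.5% of all loci, and for 8 (19.5%) all lower, beside 9.11%. In wild type 7 members (AT1G78400, AT5G55720, AT59, AT5G15110, AT3G01270, AT1G30350 and AT1G09550) had a mean in the dimmest 25% of features, below a log2 intensity of 9.18. Changes of such genes are compressed, and a signal there need not come from the named transcript. In the labelled mutant AT4G22090 and AT1G57590 also lay below that bound and AT59 lay above it.

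Of the 6 polygalacturonase genes 2 fell and 1 rose, where 13.1% of all loci fell and 19.4% rose. ADPG1 (AT3G57510), known for separating cells in opening fruits and anthers, had log2 intensities of 12.64, 12.61, 12.64, 12.54, 12.62 and 12.65 on wild-type arrays 1 to 6. On labelled mutant arrays 1, 2, 3, 5 and 6 it had 10.49, 9.62, 9.66, 10.63 and 10.49. The wild-type arrays thus lay close together, the labelled mutant arrays were more scattered (SD 0.49 against 0.04), and the groups did not overlap. ADPG1 thus fell 5.42-fold (log2 fold change -2.44 ± 0.18, SE), with a limma adjusted p of 1.44e-06. In all other settings that kept ADPG1, single arrays left out included, its value stayed between -2.55 and -2.30. The filter on the dimmest 50% of features removed ADPG1, so that setting gave no value. The adjacent SIP2 fell as well, by 0.54 on the log2 scale (adjusted p 6.95e-05), while AT3G57500 on the other side had a difference of 0.38 and did not pass.

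PGAZAT (AT2G41850, also called ADPG2), which acts with ADPG1 in organ shedding and fruit opening, fell much less. Its wild-type arrays read 14.09, 13.94, 14.20, 14.09, 14.21 and 14.20, and its labelled mutant arrays 13.59, 13.45, 13.53, 13.62 and 13.72. The groups did not overlap, and the log2 fold change was -0.54 ± 0.06 (adjusted p 6.56e-05), or 1.45-fold lower. The adjacent CPK14 fell by 0.38 on the log2 scale (adjusted p 0.00749), and AT2G41840 on the other side had a difference of 0.03. Whether probes of ADPG1 and PGAZAT share signal was not tested, because probe sequences were not used here.

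AT1G78400 rose by 0.33 ± 0.08 (adjusted p 0.0124), from 8.05 ± 0.05 to 8.38 ± 0.21 (log2 mean ± SD), but both groups lay in the dimmest 25% of features. Its 6 wild-type arrays ran from 7.97 to 8.10 and its 5 labelled mutant arrays from 8.12 to 8.71, without overlap. The features of the loci on either side rose as well, NCED9, an abscisic acid synthesis gene, by 0.63 and AT1G78410 by 0.57.

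The remaining 3 polygalacturonase genes did not pass. AT3G26610, recorded as PGX1, a polygalacturonase of cell expansion, had 11.51, 11.91, 11.66, 11.86, 11.92 and 11.73 in wild type and 11.18, 11.11, 11.49, 11.33 and 11.92 in the labelled mutant. Labelled mutant replicate 6 was level with the highest wild-type arrays and the other 4 lay below all of them. The difference was -0.36 ± 0.14 (adjusted p 0.063), and without that replicate it was -0.49 with an adjusted p of 0.0042. Without wild-type replicate 1 (adjusted p 0.048) and with array weights (0.0282) it passed as well, but in no other setting. Wild-type replicates 2 and 5 were its highest wild-type arrays. With both left out the difference was -0.28 (adjusted p 0.203).

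QRT2 (AT3G07970), a polygalacturonase gene needed for pollen grains to part from each other, read 11.11, 11.63, 10.21, 11.32, 11.57 and 10.10 in wild type. Its labelled mutant arrays read 11.02, 10.94, 11.48, 10.93 and 11.29 and lay inside the wild-type range. The difference of 0.14 ± 0.28 had a 95% interval from -0.48 to 0.76. With wild-type replicates 2 and 5 left out it was 0.45 and did not pass (adjusted p 0.229).

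AT1G48100 split the wild-type arrays most among the polygalacturonase genes: replicates 2 and 5 read 12.72 and 12.58, replicates 1 and 4 read 11.29 and 11.42, and replicates 3 and 6 read 10.80 and 10.74. The labelled mutant arrays read 12.19, 12.30, 12.08, 12.34 and 11.88, above 4 wild-type arrays and below the other 2. The difference of 0.57 ± 0.35 did not pass (adjusted p 0.236). With wild-type replicates 2 and 5 both left out, an alternative chosen after seeing the data, it was 1.09 ± 0.16 with an adjusted p of 0.000768.

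**Figure D2:**
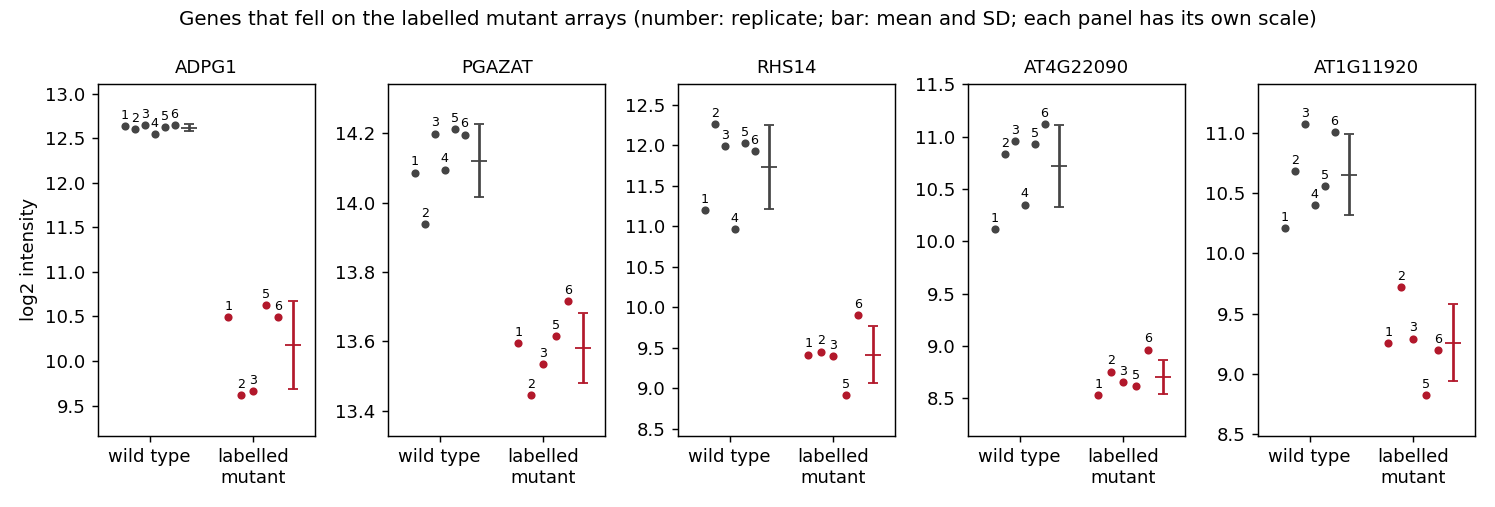
Points are the log2 intensities of single arrays, numbered by replicate, of 5 genes that fell; bars give the mean and SD of each group, and each panel has its own scale. For ADPG1 the 6 wild-type arrays lie between 12.54 and 12.65 and the 5 labelled mutant arrays between 9.62 and 10.63; in none of the 5 panels do the groups overlap.

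Of the 23 pectate lyase genes 5 fell, 4 rose and 14 did not pass, where 13.1% of all loci fell and 19.4% rose. The 2 largest falls belonged to loci with adjacent numbers on chromosome 4. RHS14 (AT4G22080), whose symbol stands for root hair specific, read 11.20, 12.26, 11.99, 10.97, 12.03 and 11.93 in wild type. On the labelled mutant arrays it read 9.41, 9.45, 9.39, 8.92 and 9.90, all below the lowest wild-type array. RHS14 thus fell 4.98-fold (log2 fold change -2.32 ± 0.24, adjusted p 2.84e-05).

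The neighbouring gene AT4G22090 read 10.12, 10.83, 10.96, 10.35, 10.93 and 11.12 in wild type and 8.53, 8.75, 8.66, 8.62 and 8.97 in the labelled mutant. The groups did not overlap, and the fall was -2.01 ± 0.17 (adjusted p 4.51e-06), or 4.04-fold. Its labelled mutant mean of 8.71 was in the dimmest 25% of features, where changes are compressed. On the outer side of the pair, WRKY31 changed by -0.74 ± 0.26 (adjusted p 0.0484) before RHS14, and BGLU3, after AT4G22090, had a difference of 0.28 with an adjusted p of 0.116. Probes shared between RHS14 and AT4G22090 were not checked.

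AT1G11920 read 10.21, 10.68, 11.07, 10.40, 10.56 and 11.01 in wild type and 9.25, 9.72, 9.29, 8.82 and 9.20 in the labelled mutant. Again the groups did not overlap, with a fall of -1.40 ± 0.18 (adjusted p 0.000138), or 2.64-fold. The loci on either side did not pass, with differences of 0.25 (AT1G11915, adjusted p 0.0871) and 0.13 (AT1G11925, adjusted p 0.0853).

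Root hair markers fell beside these genes. All 6 listed markers fell, with a median log2 fold change of -2.76. RSL4, a regulator of root hair growth, changed by -2.25 and the root hair expansin gene EXPA7 by -3.32. The mean of the 6 markers, relative to the wild-type mean, ran from -0.41 to 0.46 over wild-type arrays and from -3.51 to -1.59 over labelled mutant arrays. In wild type none of the 6 was in the dimmest 25% of features, although the RNA was labelled as hypocotyl. That bound is a rank and not a limit of detection, and the tissue that gave this signal was not tested. In bulk RNA, fewer cells of a type and less RNA per cell cannot be told apart, and the part of the root hair signal in the falls of the pectate lyase genes was not tested.

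The order of the arrays within a group was partly shared with the markers. Wild-type replicates 1 and 4, with marker means of -0.41 and -0.41, were the lowest wild-type arrays for RHS14, AT4G22090 and AT1G11920. At the high end the order was shared by RHS14 alone: replicates 2 and 5, with marker means of 0.46 and 0.42, were its highest wild-type arrays, while AT4G22090 and AT1G11920 were highest on replicates 3 and 6. Labelled mutant replicate 6, with the highest marker mean (-1.59), was also the highest labelled mutant array for RHS14 and AT4G22090 but not for AT1G11920. Labelled mutant replicate 5, with the lowest (-3.51), was the lowest for RHS14 and AT1G11920. ADPG1 showed no such spread in wild type, and its lowest labelled mutant arrays were replicates 2 and 3.

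**Figure D3:**
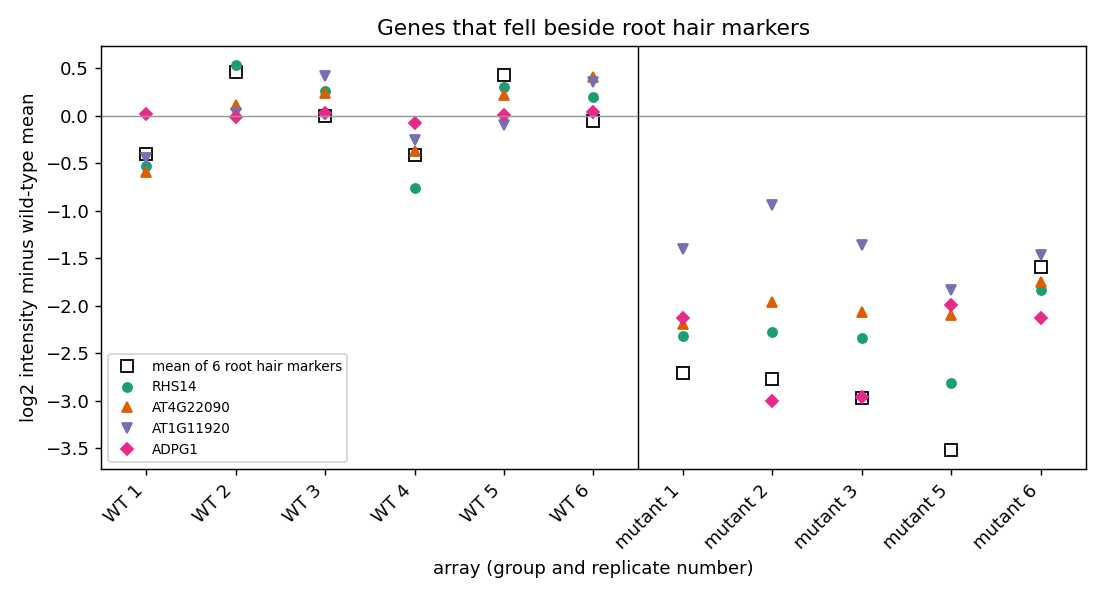
For each array the open square gives the mean of 6 root hair markers, and coloured points give ADPG1, RHS14, AT4G22090 and AT1G11920, all as log2 intensity minus the wild-type mean. The squares lie between -0.41 and 0.46 on wild-type arrays and between -3.51 and -1.59 on labelled mutant arrays, and the ADPG1 points stay near 0 on all wild-type arrays.

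The other 2 pectate lyase genes that fell changed less. AT3G24670 read 12.36, 12.90, 12.27, 12.23, 12.77 and 12.21 in wild type and 11.89, 11.91, 12.07, 12.00 and 11.92 in the labelled mutant. Wild-type replicates 2 and 5 were the highest, yet the groups did not overlap with them or without them. The fall was -0.50 ± 0.13 (adjusted p 0.0123). With both arrays left out the value was -0.31, and with arrays 3 numbers apart averaged it was -0.51 and no longer passed (adjusted p 0.0748). PMR6 (AT3G54920), whose loss makes plants resistant to powdery mildew, fell by 0.10 on the log2 scale (SE 0.03, adjusted p 0.0464). This call ended in each of the 11 fits that left out a single array.

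The 4 rises among the pectate lyase genes were small and, for 3 of them, free of overlap. AT5G63180 read 13.78, 13.51, 13.74, 13.64, 13.44 and 13.69 in wild type and 14.12, 13.99, 14.16, 14.09 and 14.13 in the labelled mutant. Its rise of 0.47 ± 0.07 (adjusted p 2.74e-04), or 1.38-fold, was the largest of the 6 rises in the set. AT3G07010 rose by 0.30 ± 0.05 (adjusted p 0.00152), from 13.39 to 13.62 over wild-type arrays and from 13.71 to 13.86 over labelled mutant arrays. AT3G53190 rose by 0.27 ± 0.04 (adjusted p 8.08e-04), with wild-type arrays from 12.92 to 13.10 and labelled mutant arrays from 13.27 to 13.34.

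AT59 (AT1G14420), the fourth gene that rose, belongs to a group of pectate lyases known from pollen. It went from 9.04 ± 0.07 to 9.41 ± 0.26 (0.37 ± 0.10, adjusted p 0.018), and its labelled mutant replicates 5 and 6 (9.17 and 9.12) reached the highest wild-type arrays (9.14 and 9.10). All 5 listed pollen markers were in the dimmest 25% of features in both groups, and 1 of them, BCP1, rose by 0.40. The mean of these markers ran from -0.06 to 0.06 over wild-type arrays and from 0.06 to 0.29 over labelled mutant arrays, highest on replicates 2 and 3. AT59 was highest on labelled mutant replicate 2. Among labelled mutant arrays the dim members AT1G78400 (8.71), AT5G55720 (8.96), AT1G30350 (9.04) and AT1G09550 (8.00) were highest there too. The dim AT5G15110 and AT3G01270 were highest on replicate 3. The order is thus shared with dim members in general and is not particular to the pollen markers. The part of the pollen marker shift in the AT59 value was not tested. The other pectate lyase genes in that range, AT5G15110, AT3G01270, AT5G55720 and AT1G30350, had differences between 0.002 and 0.073 and did not pass.

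**Figure D4:**
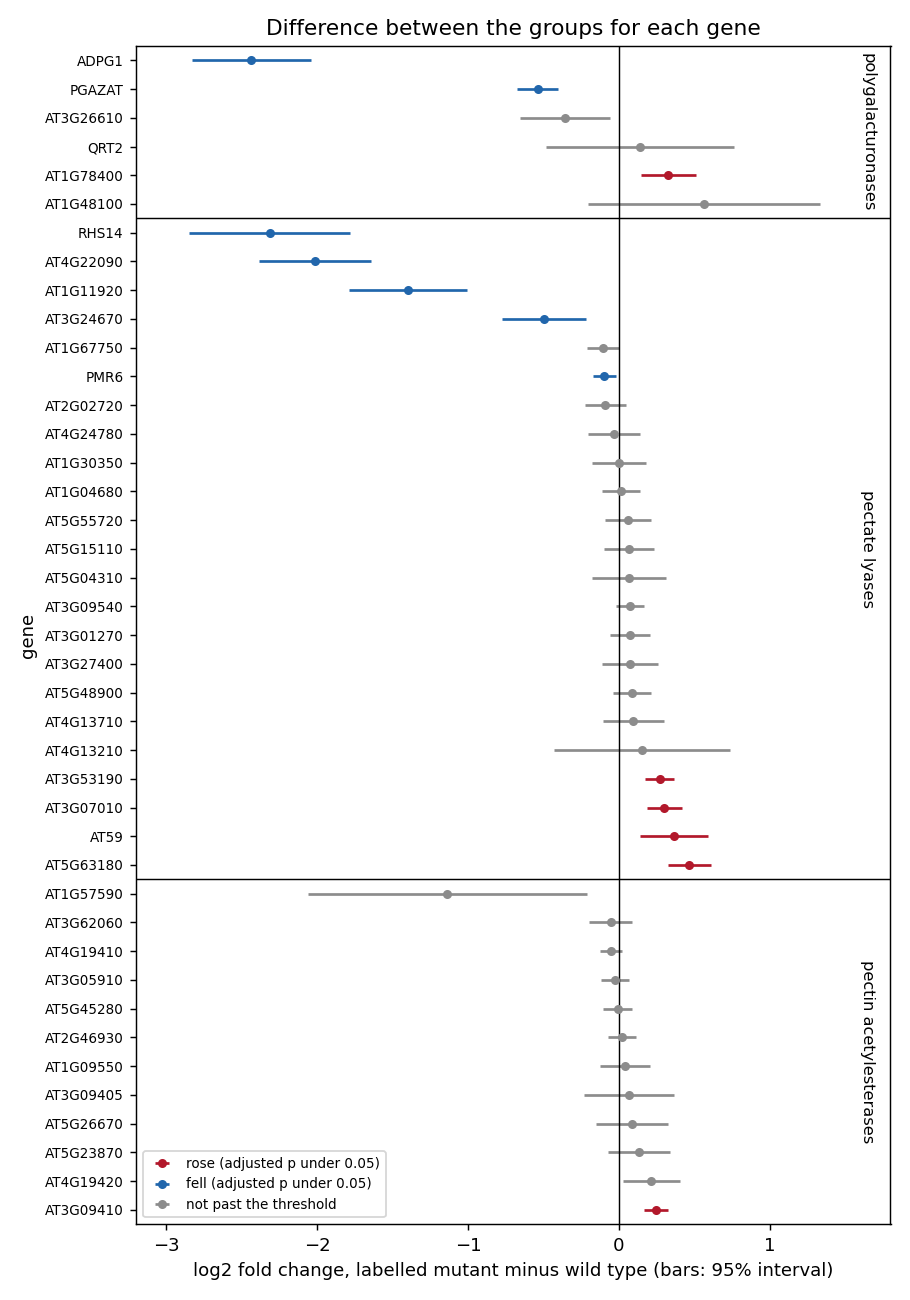
Points give the log2 fold change of each gene, labelled mutant minus wild type, and bars its 95% interval from the limma fit; red genes rose, blue genes fell and grey genes did not pass. Values run from -2.44 (ADPG1) to 0.57 (AT1G48100), and most pectin acetylesterase genes lie close to 0 with narrow bars.

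Of the 14 pectate lyase genes that did not pass, most had narrow intervals around 0. AT1G04680 had a difference of 0.01 (95% interval -0.11 to 0.14). AT4G24780 had one of -0.03 (-0.21 to 0.14), and AT1G67750 one of -0.10 (-0.21 to -0.00060, adjusted p 0.111). Without labelled mutant replicate 2, which was the highest labelled mutant array of AT1G67750, this last value was -0.14 with an adjusted p of 0.024. AT3G27400, AT5G48900, AT5G04310, AT3G09540 and AT4G13710 had differences from 0.07 to 0.10, and AT2G02720 had one of -0.09 (95% interval -0.23 to 0.05). In each of these 6 genes the groups overlapped.

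AT4G13210 varied widely in wild type, in the opposite sense to AT1G48100. Replicates 2 and 5 read 11.08 and 10.96, replicates 1 and 4 read 12.05 and 12.08, and replicates 3 and 6 read 12.41 and 12.32. The labelled mutant arrays read 11.86, 11.74, 12.15, 11.84 and 12.25, above replicates 2 and 5 and below replicates 3 and 6 of wild type. The difference was 0.15 ± 0.27, and -0.24 with wild-type replicates 2 and 5 left out, and it passed in neither fit.

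Of the 12 pectin acetylesterase genes 1 rose, 0 fell and 11 did not pass (3 of the 12 had an unadjusted p under 0.05). Over all loci 19.4% rose and 13.1% fell. AT3G09410 read 13.75, 13.63, 13.64, 13.66, 13.64 and 13.65 in wild type and 13.92, 13.88, 13.92, 13.94 and 13.87 in the labelled mutant. The groups did not overlap, and the rise was 0.24 ± 0.04 (adjusted p 4.16e-04), or 1.18-fold. Its second feature rose by 0.13 (adjusted p 0.0212). The adjacent pectin acetylesterase gene AT3G09405 had a difference of 0.07 ± 0.14 and did not pass.

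AT1G57590 had the widest spread of the set among wild-type arrays, wider than 99.8% of all loci. Replicates 2 and 5 read 10.74 and 10.72 and the other 4 read 8.82, 8.66, 8.86 and 8.65. On labelled mutant arrays it read 8.17, 8.22, 8.30, 8.00 and 8.67, of which replicate 6 overlapped with the lower wild-type arrays. The difference of -1.14 ± 0.42 did not pass (adjusted p 0.0585). With wild-type replicates 2 and 5 left out it was -0.47 ± 0.12 with an adjusted p of 0.0177, and without wild-type replicate 3 or 6 it passed at -1.29 in both cases (adjusted p 0.0443 and 0.042). The labelled mutant mean of 8.27 was in the dimmest 25% of features.

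The pair AT4G19410 (PAE7) and AT4G19420 (PAE8), pectin acetylesterases at adjacent loci, did not move together. AT4G19410 had wild-type arrays from 14.33 to 14.40 and labelled mutant arrays from 14.27 to 14.33, apart from each other but by a difference of only -0.05 ± 0.03 (adjusted p 0.238). AT4G19420 had a difference of 0.21 ± 0.09 (adjusted p 0.0764), with its 2 features at 0.21 and 0.22, and wild-type replicates 3 and 6 (13.78 and 13.78) were its lowest arrays. It passed with median centring (adjusted p 0.0461), array weights (0.0355) and a robust variance trend (0.0499). AT5G23870 (PAE9), which with PAE8 is known to lower the acetate content of wall pectin, had a difference of 0.13 ± 0.09, while its second feature rose by 0.36 (adjusted p 0.0278).

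The remaining pectin acetylesterase genes had differences near 0. AT2G46930 (PAE3) had a difference of 0.02 (95% interval -0.08 to 0.11). AT3G05910 had one of -0.03 (-0.12 to 0.06), AT3G62060 (PAE6) one of -0.06 (-0.20 to 0.09) and AT5G45280 (PAE11) one of -0.0078 (-0.10 to 0.09). AT5G26670 (0.09 ± 0.11) and the dim AT1G09550 (0.04 ± 0.08) did not pass either, nor did the second features of AT5G26670 (0.17) and AT5G45280 (0.13).

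Over the whole set, 23 of the 28 members that did not pass had a 95% interval inside 1.5-fold in both directions. The other 5 were QRT2, AT3G26610, AT1G48100, AT4G13210 and AT1G57590. For AT1G48100 and AT1G57590 the interval reached past 2-fold, from -0.20 to 1.33 and from -2.06 to -0.21 on the log2 scale. All of these except AT3G26610 were among the members with the widest wild-type spread, with an SD of 0.63 to 1.03 beside a median of 0.12 over the members and 0.12 over all loci.

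**Figure D5:**
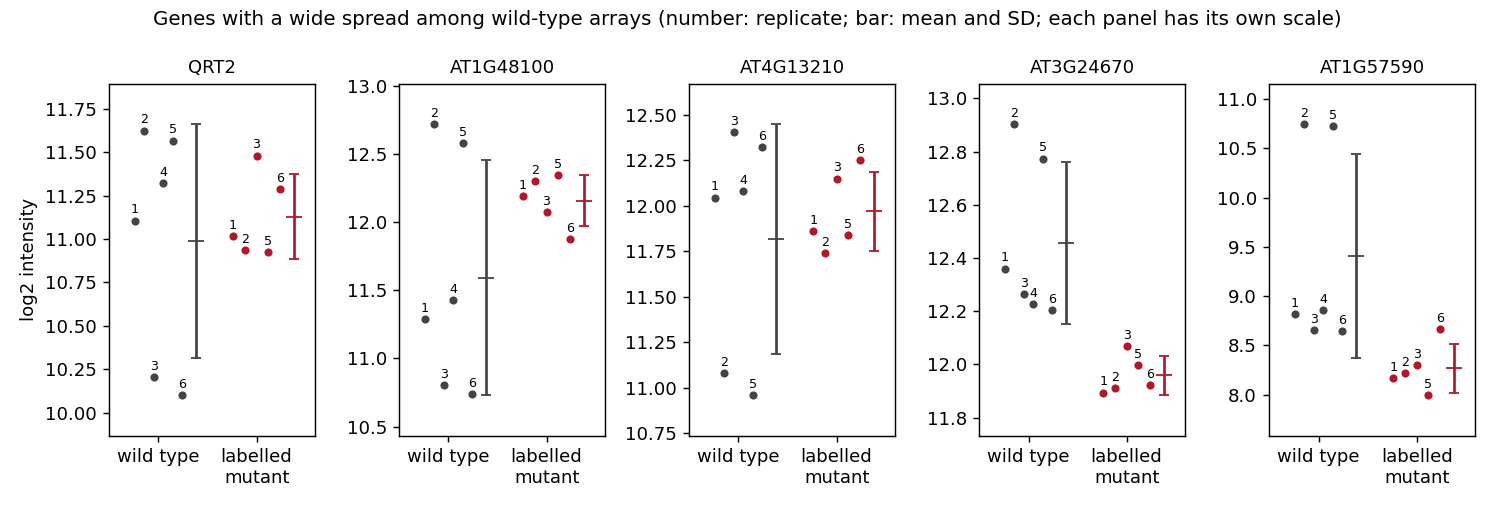
Points are the log2 intensities of single arrays, numbered by replicate, of 5 genes with a wide spread in wild type; bars give the mean and SD of each group, and each panel has its own scale. Wild-type replicates 2 and 5 are the highest 2 wild-type arrays for QRT2, AT1G48100, AT3G24670 and AT1G57590 and the lowest 2 for AT4G13210.

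Wild-type replicates 2 and 5 were the 2 highest wild-type arrays for 7 members and the 2 lowest for 10, together 41.5% of the set beside 28.1% of all loci. The 7 were QRT2, AT3G26610, AT1G48100, AT3G24670, AT3G27400, RHS14 and AT1G57590. Marker lists differed on these arrays too. The root hair marker mean was 0.46 and 0.42 on them and -0.41 to -0.0063 on the other 4. The mean of 6 seed storage and oil body markers was -0.32 and -0.43 on replicates 2 and 5 and 0.15 to 0.21 on the other 4, and that of 6 green tissue markers was 0.21 and 0.51 against -0.22 to -0.09. Their part in the members' values was not tested.

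On the labelled mutant arrays 5 of the 6 seed markers rose, and the mean of the 6 ran from 1.23 to 1.64 there. Of the 6 green tissue markers 2 rose and 0 fell, of 5 wood and xylem markers 2 rose and 0 fell, and of 3 endodermis markers 1 rose and 0 fell. Over all loci 19.4% rose and 13.1% fell, so counts this small say little about these tissues. The wood and xylem mean ran from 0.07 to 0.30 on labelled mutant arrays, beside -0.06 to 0.04 in wild type, and the endodermis mean from 0.14 to 0.25 beside -0.17 to 0.11.

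None of the listed genes that act before or after these enzymes passed with a fold of at least 1.5. Neither of the 2 polygalacturonase inhibitor genes passed: PGIP1 had a difference of 0.14 ± 0.14 and PGIP2 one of 0.29 ± 0.12 (adjusted p 0.0896). Of 5 genes of homogalacturonan synthesis, TSD2, a pectin methyltransferase-like gene also called QUA2, fell by 0.16 on the log2 scale (adjusted p 0.0175), and GAUT1, GAUT7, QUA1 and QUA3 had differences of 0.03 to 0.09 that did not pass. The TSD2 call ended with arrays 3 numbers apart averaged (adjusted p 0.0675) and with wild-type replicates 2 and 5 left out (0.0542).

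In a list of 4 genes of oligogalacturonide oxidation and sensing 2 rose, where 19.4% of all loci rose. WAK2, a wall-associated receptor kinase that binds pectin, rose by 0.38 ± 0.08 (adjusted p 0.0056) and AT4G20830 by 0.42 ± 0.12 (adjusted p 0.018), with overlap between the groups for both. The AT4G20830 call ended with arrays 3 numbers apart averaged (adjusted p 0.0521). Of 5 genes of abscission and dehiscence signalling, which control the tissues where ADPG1 and PGAZAT are known to act, HSL2 (0.33, adjusted p 0.026) and HAE (0.28, adjusted p 0.0344) rose. Both encode receptors of the abscission peptide IDA, whose own gene was in the dimmest 25% of features and did not pass. ALC, a regulator of fruit opening, fell by 0.14 on the log2 scale (adjusted p 0.0495). The calls of HAE, HSL2 and ALC ended in 6, 3 and 8 of 11 leave-one-array-out fits. With 19.4% of all loci higher and 13.1% lower, counts in lists of 4 or 5 genes say little.

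The tetrad separation genes QRT1 and QRT3 had differences of -0.11 and 0.03 and did not pass. A list of 35 further loci of the polygalacturonase family was drawn up from general knowledge, since the gene table used here holds no products. Of these 8 rose and 5 fell, beside 19.4% and 13.1% of all loci, with a median log2 fold change of 0.03. With a fold of at least 1.5, 3 fell and 1 rose, beside 4.99% and 3.58% of all loci.

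In that list the adjacent loci AT1G05650 and AT1G05660 fell most. AT1G05650 read 12.27, 13.63, 11.58, 12.37, 13.61 and 11.62 in wild type and 9.88, 10.37, 9.87, 8.97 and 11.52 in the labelled mutant. Replicates 2 and 5 were again the highest wild-type arrays, and labelled mutant replicate 6 lay just below the lowest of them. The fall was -2.39 ± 0.50 (adjusted p 0.0038). AT1G05660 fell by 1.75 on the log2 scale (SE 0.47, adjusted p 0.0157), with overlap between the groups, a call that ended with arrays 3 numbers apart averaged (adjusted p 0.0579) and with wild-type replicates 2 and 5 left out (0.0518). Probes shared between these 2 loci were not checked. AT1G23460 fell by 0.66 on the log2 scale (SE 0.06, adjusted p 1.40e-05) with no overlap, and AT1G60590 rose by 0.77 ± 0.26 (adjusted p 0.0385), a call that ended in 7 of 11 leave-one-array-out fits.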

How the data were processed

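Total RNA was labelled with 1 dye and hybridised to NimbleGen arrays. The authors deposited 1 linear intensity per feature. The submitters' processing notes name RMA; version, settings, genome build and annotation are not given in the sources used. RMA as generally run equalises the arrays, so each gene is measured relative to the others. Array medians ran from 3775.6 to 3909.2, and the value table and the files per array differed by 0. Columns of other samples numbered 0.

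The log2 of each deposited intensity entered 1 unfiltered limma fit of all 37118 features on group alone (limma 3.58.1, R 4.3.3, lmFit and eBayes). P-values were adjusted over the whole table by Benjamini-Hochberg, and the fit was tested on simulated data. Alternatives were other scalings, filters on dim features, feature means, variance models, array weights, averaging of arrays 3 numbers apart and leaving out arrays. The number of arrays limits the precision. Symbols came from a RefSeq table of the TAIR10.1 assembly, which held 31993 of the loci; neighbours follow locus numbers. Probe and gene sequences were not used here.

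The members, the related and marker lists and the tests were chosen with earlier results of these data known. Every member may be named; members past a fold of 1.5 were to be given on every array, and of the related lists genes past that fold or, failing that, those of lowest p. Other genes of these lists, neighbours and the per-array values of smaller changes were chosen after their values were seen.

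The replicate number was tried as a block. Deviations from the group means correlated between arrays of the same number at -0.061 to 0.289, so the numbers were not taken to pair the arrays.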

Additional observations from a re-analysis of the deposited data

Results flagged for a closer look

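For each member and group, the gap between the highest or lowest array and its nearest neighbour was set against the range of the group. Of 82 such groups 6 had a gap above the critical share (0.71 for 5 arrays, 0.625 for 6), where chance flags about 1 in 20. On labelled mutant replicate 2, AT4G24780 read 14.14, above 13.82 to 13.88 on the other 4 arrays. AT5G04310 read 11.88 there, below 12.37 to 12.56, and AT4G19420 read 14.04, below 14.23 to 14.31. In wild type, AT1G30350 read 9.09 on replicate 4, above 8.75 to 8.82, AT3G09410 read 13.75 on replicate 1, above 13.63 to 13.66, and AT4G19410 read 14.40 on replicate 3, above 14.33 to 14.35. AT3G09410 rose, and the other 5 genes did not pass, with or without any single array.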

How the results depend on the processing

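The 6 rises became 0 and the 7 falls 4 with a fold of at least 1.5. Without the dimmest 50% of features, a filter that kept 22 members, the falls became 3. That filter removed all 4 genes that fell by at least 1.5-fold (ADPG1, RHS14, AT4G22090 and AT1G11920), so they were not tested there. Leaving out each array in turn gave 6 to 6 rises and 6 to 7 falls. Among polygalacturonase genes the 1 rise became 0 without the dimmest 25% or 50%, at an adjusted p of 0.01 and with that fold, and 2 with wild-type arrays 2 and 5 left out (chosen after seeing the data); the 2 falls became 1 without the dimmest 50% and with that fold, and 2 to 3 with single arrays left out. Among pectate lyase genes the 4 rises became 0 with that fold; the 5 falls became 2 without the dimmest 50%, 3 with arrays 3 numbers apart averaged, at 0.01 and with that fold, and 4 to 5 with single arrays left out. Among pectin acetylesterase genes the 1 rise became 2 with median centring, a robust trend or array weights and 0 with that fold; the 0 falls became 1 with array weights, with wild-type arrays 2 and 5 left out, and without wild-type replicate 3 or 6. The replicate block, although the numbers did not pair the arrays, gave 7 rises in all and 2 among pectin acetylesterase genes; of the genes named in the report, PMR6 (adjusted p 0.102), TSD2 (0.059), HAE (0.0501), ALC (0.0894) and AT1G05660 (0.0635) lost their calls under it. No called member changed direction under any setting; AT1G78400, the dimmest riser, has no value without the dimmest features. The share of all loci that passed ran from 19.3% to 37.5% over these settings. The members' share exceeded it with arrays 3 numbers apart averaged (26.8% against 19.3%) and with the replicate block (31.7% against 26.1%). It did so too with wild-type arrays 2 and 5 left out (34.1% against 25.6%), among other settings. The members' share was the lower one with median centring (31.7% against 33.9%) and with feature means (31.7% against 32.6%). The same held without wild-type replicate 6 (31.7% against 32.1%) and without labelled mutant replicate 6 (31.7% against 32.8%). The cause of these differences was not tested. The number of arrays and, for dim features, signal over background limit what could be seen.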
